A study of Mus musculus with 11 samples.

Results

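Insulin signaling and the trafficking of the glucose transporter GLUT4 were followed through 10 genes in the aorta of old mice, from the insulin receptor to the transporter itself. The genes were selected by symbol from an earlier look at the same arrays, with their differences between nitrate treated mice and controls already known, so those differences are a description without P values, and where one is said to pass or miss the thresholds of the study, that too describes it and supports nothing. All probes bearing one of the 10 symbols were taken, which gave 10 of 36413 gene names and 17 of 55681 probes on the array, printed as 27 spots. Of the 17, 16 counted as detected, meaning that 5 or more arrays of 1 group showed a found spot well above background, while the second Irs1 probe did not.

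Insulin binds its receptor (Insr), which phosphorylates docking proteins such as Irs1 and Irs2, and these recruit a phosphoinositide 3-kinase whose regulatory subunit p85 alpha is encoded by Pik3r1. The lipid made by that kinase leads to activation of the kinases AKT1 and AKT2, and AKT2 phosphorylates TBC1D4 (also called AS160) and TBC1D1, a pair of related Rab GTPase-activating proteins that hold GLUT4 vesicles inside the cell until they are phosphorylated. GLUT4, encoded by Slc2a4, then reaches the cell surface, above all in fat, skeletal muscle and heart, whereas GLUT1, encoded by Slc2a1, carries basal glucose uptake in most cells, those of the vessel wall included.

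The mice were male C57BL/6 animals aged 20 months. A group of 5 received 1 g/L sodium nitrate in drinking water over 8 weeks, and 6 served as controls, for which the methods name sodium chloride at the same concentration while the labels name no salt and refer the arrays to earlier samples. The sources used here do not say that the groups were kept in parallel, and if they were not, cohort and treatment cannot be told apart in any difference below. RNA of the descending aorta of each mouse, freed of surrounding fat before freezing, was measured on 1 one-color array. All values are quantile normalized log2 signals, on which a difference of 1 is a doubling, and the level of 1 probe cannot be set against that of another.

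The arrays lay on 3 slides that each held both groups, with a 75th percentile of the raw signal between 213 and 289, and their number limits the precision of every value. All control arrays lay in column 3 of a slide and no nitrate array did, so that position and treatment cannot be told apart. The smooth muscle markers Acta2 (actin) and Myh11 (myosin) were detected in all 11 mice, as was the endothelial Pecam1, while the endothelial Cdh5 passed in 4 of 5 nitrate treated mice and 6 of 6 controls and the macrophage Cd68 in 5 and 4. Control 1 stood apart: its mean over 15 smooth muscle genes was -0.45 relative to all mice, and its heart muscle genes were high. The same mean was -0.10 to 0.09 in the other controls and -0.06 to 0.17 in nitrate treated mice.

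The largest differences lay in Tbc1d4, Tbc1d1 and Slc2a4, and the probes that gave them are shown here because they are the stretches of RNA that were read. The first Tbc1d4 probe lies at chr14:101841577-101841636 of the mm9 build, minus strand, and the second at chr14:101878355-101878414, with 36.78 kb between their starts. The brighter Tbc1d1 probe lies at chr5:64742581-64742640, plus strand, and the Slc2a4 probe at chr11:69756073-69756132, minus strand. The files give no exon or UTR annotation for these positions, and all probes are 60 bases long. The second Tbc1d4 probe is printed whole and the others by their last 30 bases, 5′ to 3′, with AATAAA or ATTAAA, the signals that precede a poly(A) tail, in capitals on the probe strand.
Tbc1d4 probe 1: ttccAATAAAtatgttgctgccatttcctg
Tbc1d4 probe 2: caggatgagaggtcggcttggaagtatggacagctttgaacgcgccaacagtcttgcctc
Tbc1d1 probe 1: attgtattttattatttgaatgttttaatg
Slc2a4: caagggctgctgtATTAAAtgtgtatatag
Either hexamer was found in 5 of the 17 probes (29.4%), against 13.7% of all 55681 probes. A pair of Akt2 probes that share 53 bases is among the 5, so the share counts largely the same stretch again. The first Tbc1d4 probe and the Slc2a4 probe hold 1 each, and the second Tbc1d4 probe holds neither. A match describes these letters alone.

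At the thresholds of the study, a moderated test in limma with an unadjusted P below 0.05 and a fold beyond 1.2, 4 of the 16 detected probes passed, in 3 genes. Among all 23629 detected probes, 9.00% passed, 4.16% higher and 4.85% lower in nitrate treated mice. The groups did not overlap in 2 of the 16 probes, against 2.75% of all. After Benjamini-Hochberg adjustment over all detected probes, 0.0127% of them stayed under 0.05. Since the 10 genes came from this contrast, nothing further is read from these counts. The median difference was -0.08 over the 16 probes and 0.01 over all detected probes. In the 10 genes, each read from its brightest detected probe, 5 had a mean above and 5 below that of controls.

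**Figure D1:**
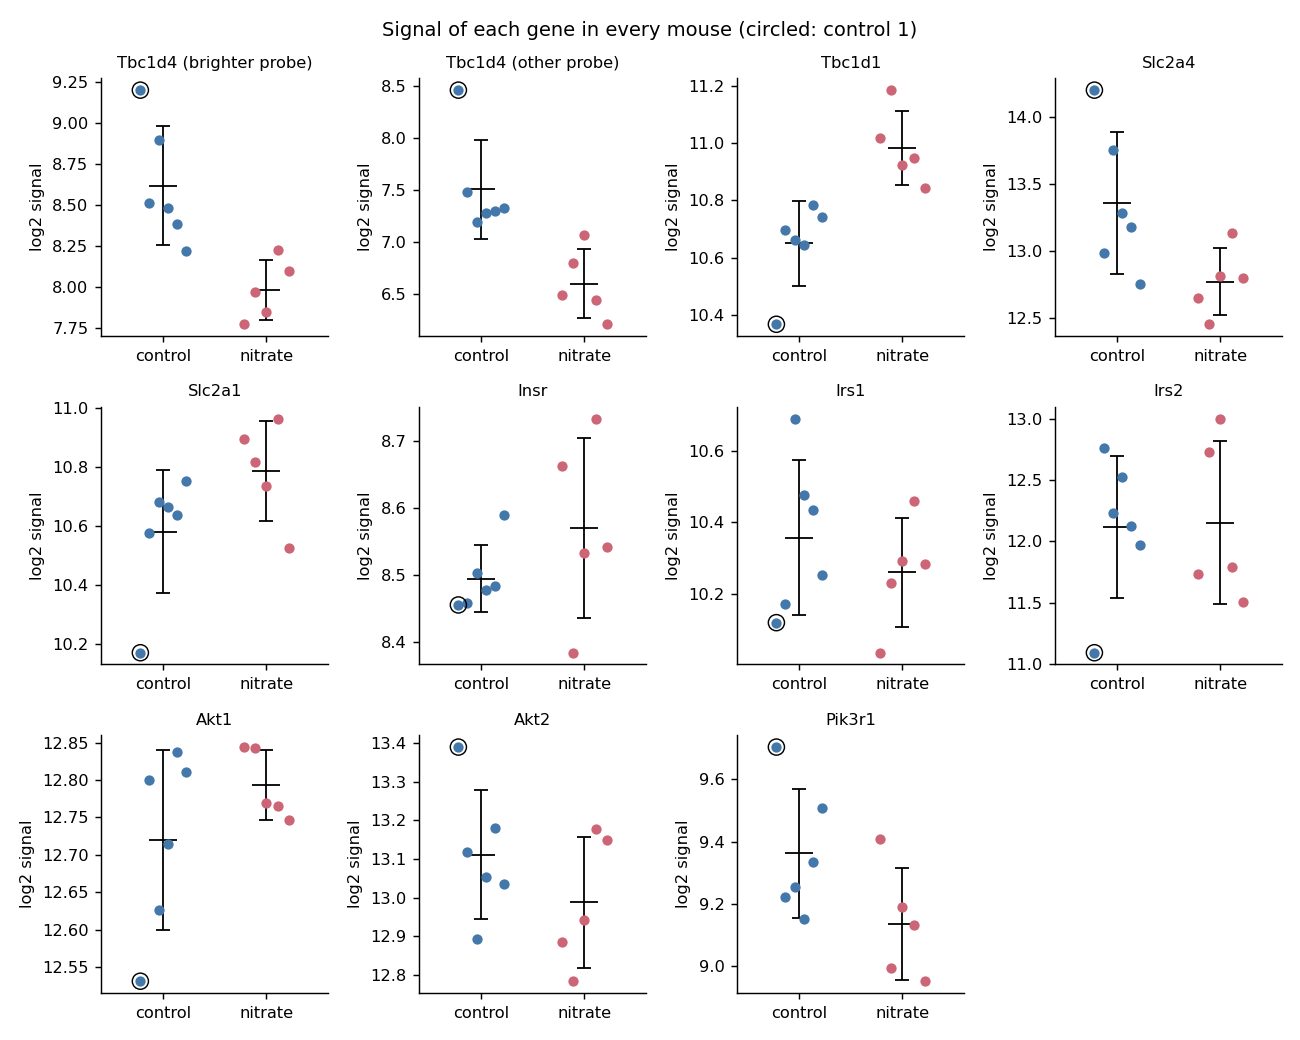
Quantile normalized log2 signal (vertical axes, each with its own range) in the 6 controls and the 5 old nitrate treated mice, 1 point per mouse, with bars for the mean and SD and control 1 circled. The groups do not overlap for Tbc1d1 and for the second Tbc1d4 probe, and control 1 is the highest mouse for Tbc1d4 and Slc2a4 and the lowest control for Tbc1d1, Slc2a1 and Akt1.

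GLUT4 came first among the cargo. Slc2a4 read 12.65, 12.46, 12.81, 13.13 and 12.80 in nitrate treated mice 1 to 5. In controls the lowest value was 12.75, the median 13.23 and the highest 14.20. The groups overlapped, since control 6 lay below nitrate treated mice 3, 4 and 5 and control 2 below mouse 4, and controls 1 and 3 stood above all others. The means were 12.77 ± 0.25 (SD, n = 5) and 13.36 ± 0.53 (SD, n = 6), which differed by -0.59 ± 0.23 (SE), a fold of 1.50. The array carries 10 spots of this probe, and their SD within an array was 0.04 to 0.10, less than the SD between mice of either group. Slc2a4 varied more within groups than 93.8% of detected probes.

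The size of the Slc2a4 difference varied with the mice and slides kept. It was -0.42 without control 1 and -0.51 without control 1 and nitrate treated mouse 4. Within slide 1, which held control 1, it was -1.04, within slide 2 -0.20 and within slide 3 -0.50, all in the same direction. Without nitrate treated mouse 1 or 2, or without control 3, Slc2a4 no longer passed the thresholds.

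GLUT1, in contrast, had the higher mean in nitrate treated mice. Slc2a1 read 10.89, 10.82, 10.73, 10.96 and 10.52 in nitrate treated mice, and from 10.17 through a median of 10.65 to 10.75 in controls. The difference of 0.21 ± 0.11 (SE) did not pass the thresholds, and the groups overlapped through nitrate treated mice 3 and 5. Control 1 was the lowest of all mice, and without it the difference was 0.12. Without nitrate treated mouse 5 the probe passed.

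Tbc1d4, the GTPase-activating protein that links AKT to GLUT4 vesicles in fat and muscle, was lower in nitrate treated mice at both probes. The first probe read 7.77, 7.97, 7.84, 8.22 and 8.10 in nitrate treated mice, and from 8.22 through a median of 8.50 to 9.20 in controls, where it passed the detection limits on 4 of the 6 arrays. Nitrate treated mouse 4 and control 6 met at 8.22, and all other nitrate treated mice lay below all controls. The difference was -0.64 ± 0.16 (SE), a fold of 1.55.

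The second Tbc1d4 probe, detected on all arrays, read 6.48, 6.79, 7.06, 6.44 and 6.21 in nitrate treated mice, and from 7.19 through a median of 7.31 to 8.46 in controls. Here every nitrate treated mouse lay below every control. The difference was -0.91 ± 0.23 (SE), a fold of 1.87. The deviations of both probes from their group means correlated with r = 0.444 over the 11 mice, which share the arrays, and this is given as a description. Control 1 was the highest mouse at both probes, and without it the difference of the first was -0.52. Within slides the first probe gave -0.99, -0.51 and -0.48.

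Tbc1d1, the relative of TBC1D4 that is also a target of AMPK, went the other way. Its brighter probe read 11.02, 11.19, 10.92, 10.95 and 10.84 in nitrate treated mice, and from 10.37 through a median of 10.68 to 10.78 in controls. Every nitrate treated mouse lay above every control, with nitrate treated mouse 5 and control 5 the closest pair. The difference was 0.33 ± 0.09 (SE), a fold of 1.26, and 0.28 without control 1. It was 0.57 within slide 1, 0.23 within slide 2 and 0.17 within slide 3. The second Tbc1d1 probe, 5.99 kb upstream on the plus strand and close to background, read 5.45 to 5.86 in nitrate treated mice and 4.93 to 6.41 in controls, with overlapping groups and a difference of 0.15 ± 0.21 (SE). Without control 5, its highest mouse, the difference was 0.33 and the probe passed. Over both probes the mean difference was 0.24 ± 0.14.

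**Figure D2:**
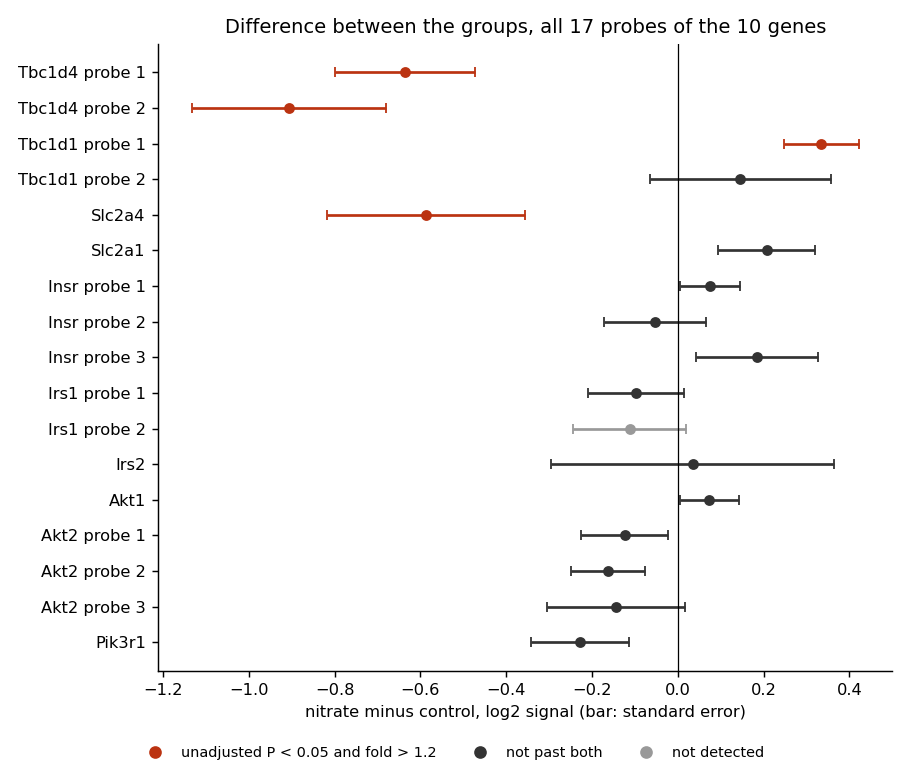
Difference between the group means (nitrate minus control, log2 signal, horizontal axis) with its standard error for all 17 probes, numbered as in the text. Both Tbc1d4 probes and Slc2a4 lie left of 0 and the first Tbc1d1 probe right of it, and the 12 other detected probes, in black, did not pass both thresholds.

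The insulin receptor was read by 3 probes, which disagreed in sign. Insr differed by 0.08 ± 0.07 at the brightest probe, where nitrate treated mice spanned 8.38 to 8.73 and controls 8.46 to 8.59. The others gave -0.05 ± 0.12 and 0.18 ± 0.14, and all 3 had overlapping groups. The brightest probe differed by 0.04 without nitrate treated mouse 4 and by 0.12 without nitrate treated mouse 2. Their deviations moved together, with r between 0.504 and 0.657 for the 3 pairs of probes over 11 mice that share arrays.

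Of the docking proteins, Irs1 read 10.03, 10.23, 10.29, 10.46 and 10.28 in nitrate treated mice and from 10.12 through 10.34 to 10.69 in controls, a difference of -0.10 ± 0.11 (SE), which was -0.03 without control 3, -0.04 without nitrate treated mouse 1 and -0.15 without nitrate treated mouse 4. Irs2, whose transcript is known to respond quickly to fasting and feeding, was the most variable of the 10. It read 11.73, 12.73, 13.0015, 11.79 and 11.50 in nitrate treated mice and from 11.09 through 12.18 to 12.76 in controls. Its SD was 0.67 in nitrate treated mice and 0.58 in controls, and it varied more within groups than 98.4% of detected probes. The difference of 0.03 ± 0.33 (SE) was small beside that spread. It was -0.17 without control 1, the lowest mouse, and 0.31, 0.75 and -0.53 within slides 1, 2 and 3. When the mice were killed in relation to feeding is not given in the sources used here.

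Pik3r1 read 9.41, 8.99, 9.19, 9.13 and 8.95 in nitrate treated mice and from 9.15 through 9.29 to 9.70 in controls. The groups overlapped, with 4 of the 6 controls below nitrate treated mouse 1, and the difference was -0.23 ± 0.11 (SE). It passed the thresholds without nitrate treated mouse 1 and also without control 4.

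The kinases themselves differed little. Akt1, read by 2 spots on each array, spanned 12.75 to 12.84 in nitrate treated mice and 12.53 to 12.84 in controls, a difference of 0.07 ± 0.07 (SE) that was 0.04 without control 1. It varied less within groups than most transcripts, since only 11.8% of detected probes varied less. Akt2, the isoform that acts on TBC1D4, gave -0.12 ± 0.10, -0.16 ± 0.09 and -0.14 ± 0.16 (SE) at its 3 probes. The first and second of these share 53 bases and are not separate measurements. All 3 had overlapping groups, and the first was -0.07 without control 1 or without nitrate treated mouse 2 and ran the other way within slide 3, at 0.13. The third was -0.02 without control 1.

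Other genes of the pathway came from 7 lists with 211 symbols, written with earlier results of these arrays known. Of these, 182 were detected, and 15 (8.24%) passed the thresholds, 3 higher and 12 lower, beside 9.00% of all detected probes. With normexp background correction 16 passed, beside 5.15% of all. Their median difference was 0.01, as over all detected probes. In limma's moderated test the smallest adjusted P value was 0.102, so that none stayed below 0.05, while 27 were below it unadjusted. The 15 genes had adjusted P values between 0.102 and 0.344.

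In the lists that follow, counts are of genes past both thresholds, to be read beside 4.16% higher and 4.85% lower of all detected probes. Among receptor partners and docking proteins, 3 of 28 detected genes passed lower and none higher, and 16 of the 28 had the higher mean in nitrate treated mice. Irs3, a docking protein that rodents express mainly in fat, differed by -0.80 ± 0.16 (SE). Sh2b2, an adaptor of the activated receptor also called APS, differed by -0.62 ± 0.19. Socs3, an inhibitor of cytokine and insulin signaling, differed by -0.35 ± 0.12. In all 3 the groups overlapped.

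Among the kinases and phosphatases around PI3K, AKT and mTOR, 1 of 32 passed higher and 1 lower, and 17 had the higher mean. Pik3ip1, an inhibitor of PI3K, read 10.71, 10.69, 10.77, 10.62 and 10.72 in nitrate treated mice and at most 10.53 in controls, a difference of 0.34 ± 0.09 (SE) without overlap. Ppp2r5a, a regulatory subunit of protein phosphatase 2A, differed by -0.31 ± 0.14. The groups also did not overlap for Inpp5k, a phosphatase of the PI3K lipid (0.17 ± 0.06), and for Ppp2ca, the catalytic subunit of protein phosphatase 2A (-0.10 ± 0.05), neither of which reached the fold threshold.

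Of 19 AKT targets, 1 passed higher and 3 lower, 8 had the higher mean, and the median difference was -0.15. Acly, which makes cytosolic acetyl-CoA for fat synthesis, had the largest difference of all 182 genes, at -1.07 ± 0.40 (SE), and spanned 13.71 to 16.40 in controls with control 1 on top. Pde3b, the phosphodiesterase through which insulin restrains lipolysis, differed by -0.49 ± 0.13, but was detected on 3 of 5 nitrate arrays and entered the test through the controls, where it was higher. Eif4ebp2, a repressor of translation, differed by -0.35 ± 0.16. Foxo6, a forkhead factor restrained by AKT, was the highest of the list at 0.51 ± 0.16, although nitrate treated mouse 4 read 8.04, below 5 of the 6 controls.

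Of 42 detected genes of GLUT4 storage vesicles and their fusion, 1 passed. Tusc5, a membrane protein of GLUT4 vesicles in fat cells, read 9.54, 8.98, 9.71, 9.41 and 9.68 in nitrate treated mice and 9.87 to 10.85 in controls, a difference of -0.77 ± 0.18 (SE) without overlap. Tctex1d2 differed by 0.13 ± 0.05 without overlap and below the fold threshold. None of the 23 detected small GTPases that move these vesicles passed in limma's test, where 1 was below an unadjusted P of 0.05.

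Among AMPK, its kinases and the 14-3-3 proteins, which bind phosphorylated TBC1D4, 1 of 24 passed higher and 2 lower, and 12 had the higher mean. Ywhag, the gamma 14-3-3 protein, read 11.24, 11.16, 11.43, 11.48 and 11.32 in nitrate treated mice and 11.55 to 12.04 in controls, a difference of -0.39 ± 0.10 (SE) without overlap. Sik2, a kinase related to AMPK, differed by -0.42 ± 0.13, and Camkk1, a kinase upstream of AMPK, by 0.28 ± 0.11. Among other glucose transporters and hexokinases, 2 of 14 passed lower and none higher, and 7 had the higher mean. Pgm2 (phosphoglucomutase) differed by -0.36 ± 0.15.

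**Figure D3:**
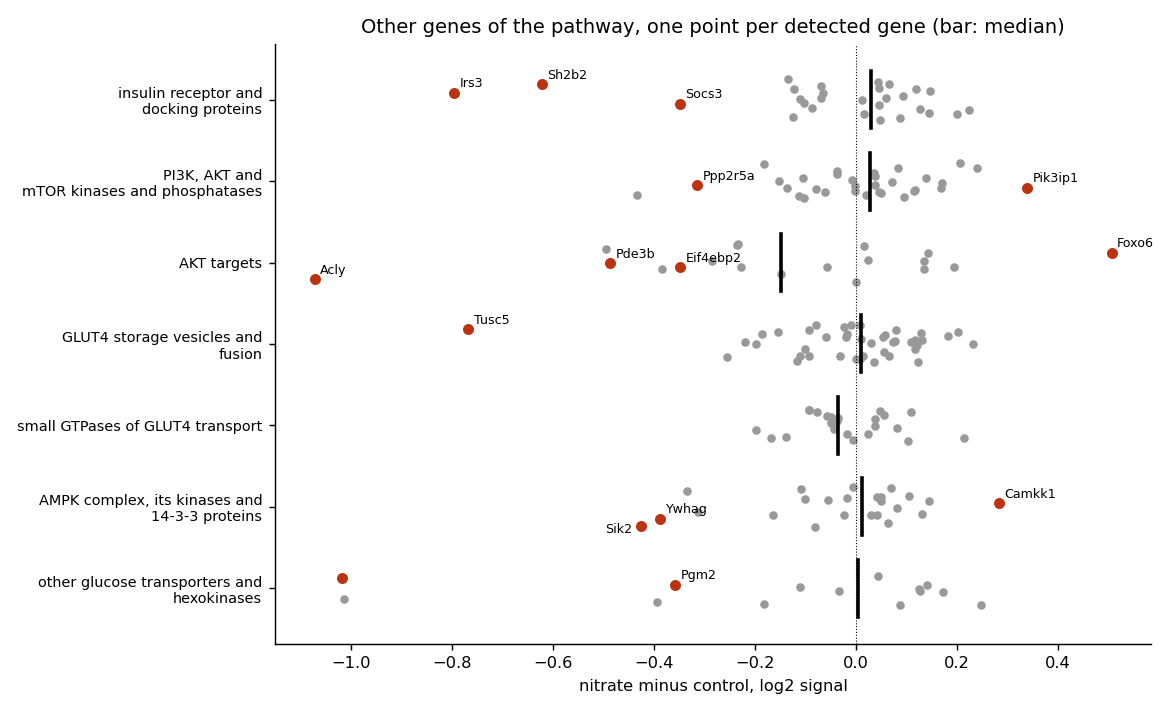
Difference between the group means (nitrate minus control, log2 signal) for the 182 detected genes of the 7 pathway lists, 1 point per gene, with the median of each list as a bar and genes that passed both thresholds in red, 14 of them with their names. Most genes lie near 0, and 12 of the 15 red points lie left of it.

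The count of 15 depended on the mice kept. It ranged from 12, without nitrate treated mouse 2 or without control 4, to 23, without control 5. With each of the 11 mice left out in turn, 9 of the 15 genes passed every time, and Camkk1, Eif4ebp2, Pgm2, Ppp2r5a and Socs3 were among the 6 that did not. Without control 1 and nitrate treated mouse 4 together, Acly did not pass either. The number higher rose from 3 to 5 without nitrate treated mouse 3 and to 6 without control 3 or control 5.

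Markers of fat cells mostly had lower means in nitrate treated mice, with 4 of 30 higher. All 30 adipocyte markers were detected, although the vessels had been freed of fat. The list mean, relative to all mice, was -0.39, -0.29, -0.16, 0.00 and -0.10 in nitrate treated mice and from -0.14 through a median of 0.07 to 0.49 in controls. The groups overlapped, with controls 1 and 3 on top. Of the 30 genes, 12 passed the thresholds, all lower in nitrate treated mice, beside 4.85% of all detected probes, and the mean of the list differed by -0.34. Adipoq (adiponectin) was 14.79 ± 0.19 in controls and 14.30 ± 0.18 in nitrate treated mice, without overlap (limma, adjusted P = 0.13), while Plin1 (perilipin), Fabp4 (a fatty acid carrier) and the brown fat marker Ucp1 differed by -0.24, -0.16 and 0.23 and did not pass. The 16 brown fat markers did not move one way: 9 had the higher mean in nitrate treated mice, the list mean differed by -0.04, and 4 passed (beside 9.00% of all detected probes), with Cidea (-0.52), Ebf2 (-0.54) and Ppara (-0.45) lower and Prdm16 (0.31) higher. Other list means differed by -0.35 (blood, 5 of 8 markers detected), 0.16 (fibroblasts, all 13 with the higher mean), 0.12 (smooth muscle, 12 of 15), 0.08 (macrophages, 13 of 14) and -0.06 (endothelium, 8 of 18), with 0 to 2 genes of a list past the thresholds. In whole aorta, fewer cells of a type and less RNA per cell cannot be told apart.

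Within groups, the same mice were high for fat cell markers, for Slc2a4 and for the first Tbc1d4 probe. The deviations of each mouse from its group mean, which do not use the difference between the groups, were compared. They covered the 10 genes, each at its brightest detected probe, and 3 marker lists, 30 relations in all. The second Tbc1d4 probe was not compared, and there control 3, high for the adipocyte list, read 7.19, the lowest control. The permutations shuffle the deviations freely although group means had been removed, so all permutation P values here tend to be too small. Of the 30 relations, 5 had an adjusted permutation P value under 0.05, 3 of them with the adipocyte list. The other 2, of Akt2 and Irs2, were with the heart muscle list, where the mice fell into separate clusters. No value over all 11 is given there. For Slc2a4 and the adipocyte list r was 0.944 (permutation P = 2e-05, adjusted 0.0006) and rho 0.909 (permutation P = 0.00029) over 11 mice. For Tbc1d4, at its first probe, r was 0.946 (permutation P = 5e-05, adjusted 0.00075) and rho 0.909 (permutation P = 0.00022). Akt1 ran against the list, with r = -0.913 (permutation P = 9e-05, adjusted 0.0009) and rho = -0.945 (permutation P = 4e-05). For Tbc1d1 r was -0.722 (permutation P = 0.0108, adjusted 0.054) and rho -0.745 (permutation P = 0.0111).

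These relations leaned on controls 1 and 3, the mice farthest from the median of the list. Without them r was 0.855 for Slc2a4 (exact permutation P = 0.00419, adjusted 0.0629), 0.861 for Tbc1d4 (exact permutation P = 0.00362, adjusted 0.0629), -0.735 for Akt1 (exact permutation P = 0.0269, adjusted 0.161) and -0.586 for Tbc1d1 (exact permutation P = 0.0947, adjusted 0.226). These 4 signs were kept. With the farthest pair of mice of its own list left out of each relation, which differed between the 3 lists, none of the 30 passed the adjusted threshold over 9 mice. A slide holds at most 4 mice, too few for values within slides. With the slide means removed beside the group means, an alternative chosen after seeing the data, r over 11 mice was 0.942 for Slc2a4 (permutation P = 9e-05, adjusted 0.0009), 0.981 for Tbc1d4 (permutation P = 1e-05, the smallest these can give, adjusted 0.0003), -0.959 for Akt1 (permutation P = 4e-05, adjusted 0.0006) and -0.783 for Tbc1d1 (permutation P = 0.00443, adjusted 0.0266). Shuffling ignores the removed slide means too, so these P values are smaller still than they should be. Nothing is read from Tbc1d1 passing the adjusted threshold there. The part of fat cell RNA in the differences of Slc2a4, Tbc1d4 and the fat-expressed genes above was not tested.

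**Figure D4:**
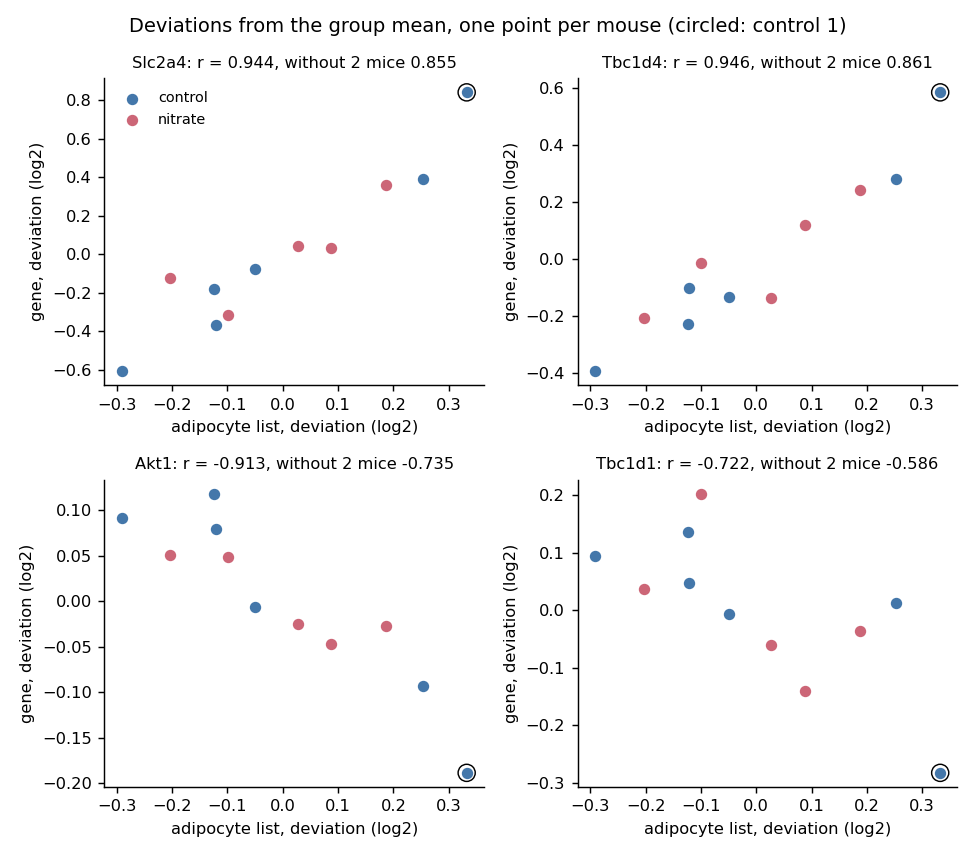
Deviation of each mouse from its group mean in the adipocyte list (horizontal axes, log2) and in Slc2a4, Tbc1d4, Akt1 and Tbc1d1 (vertical axes, log2), 1 point per mouse, with control 1 circled and Pearson's r over 11 mice and without controls 1 and 3 in the panel titles. Slc2a4 and Tbc1d4 (first probe) rise with the list and Akt1 and Tbc1d1 fall, with control 1 at one end of each.

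Heart and skeletal muscle are the other tissues rich in GLUT4. The heart muscle list, 14 of 21 genes detected and without Myh7 and Myl2, was at 2.27 in control 1 and 2.69 in nitrate treated mouse 4, and between -1.26 and 0.45 in the other 9 mice, with group means that differed by 0.61. Myh6 (cardiac myosin) read 14.05 and 14.64 in these mice and Tnnt2 (cardiac troponin T) 11.80 and 12.42. Over the other 9 mice r with the list was -0.453 for Slc2a4 (exact permutation P = 0.223, adjusted 0.394), 0.494 for Akt2 (exact permutation P = 0.178, adjusted 0.356) and -0.708 for Irs2 (exact permutation P = 0.0359, adjusted 0.179). The skeletal muscle list, 13 of 22 genes detected and none of the adult fast myosins Myh1, Myh2 and Myh4, lay between 0.04 and 0.31 in nitrate treated mice and between -0.30 and 0.25 in controls. Its relations with the 10 genes had adjusted permutation P values of at least 0.11.

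The deviations of the 10 genes, each at its brightest detected probe, were also compared with each other, with the same limit on the P values. Of the 45 pairs, 4 had an adjusted permutation P value under 0.05 over 11 mice. Slc2a4 and the first Tbc1d4 probe rose and fell together, with r = 0.914 (permutation P = 0.00019, adjusted 0.00428) and rho = 0.736 (permutation P = 0.0128). Akt1 ran against Slc2a4, with r = -0.913 (permutation P = 0.00013, adjusted 0.00428) and rho = -0.900 (permutation P = 0.00032), and against Tbc1d4, with r = -0.893 (permutation P = 0.00032, adjusted 0.0048) and rho = -0.873 (permutation P = 0.00079). Tbc1d1 went with Akt1, with r = 0.846 (permutation P = 0.00122, adjusted 0.0137) and rho = 0.809 (permutation P = 0.004). Over the 9 mice without control 1 and nitrate treated mouse 4, a choice made after seeing the data, these r were 0.778, -0.850, -0.798 and 0.661 in that order, and none of the 45 pairs had an adjusted exact permutation P value under 0.05.

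Over all 11 arrays, the probes most like Slc2a4 by Pearson's r were Scarb1 (0.975), a lipoprotein receptor, Mbp (0.971), Mlxipl (0.966), a glucose-responsive transcription factor, Tmem79 (0.964) and Mal2 (0.964). The 4 most like the first Tbc1d4 probe were Gsta4 (0.983), Ap3s1 (0.973), Gpx4 (0.973) and Gys1 (0.972), which makes glycogen in muscle and other tissues. These values describe 11 arrays that share their treatment groups and control 1, and the difference between the groups is part of them.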

How the data were processed

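The authors deposited Cy3 intensities for each array, written by Feature Extraction with local background subtracted, and a log2 table that is quantile normalized, which was checked against the intensities. The deposited processed intensity was floored at 1, put on the log2 scale, averaged over the spots of a probe without control or outlier spots, and quantile normalized over 11 arrays. Each array had 59305 spots, of which 107 to 186 were outliers and none was saturated. Groups were compared with limma 3.58.1 in R 4.3.3 (lmFit, eBayes) over 23629 detected probes. Correlations and their permutations were computed in NumPy 2.4.6, with ranks from SciPy 1.17.1. They used 100000 resamples over 11 mice and all orders over 9. Exact refers only to trying every order, since removed group means still make those P values too small. The limma test was also tried on simulated data, from which nothing is read here.

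The 10 genes, all lists and all tests were chosen with earlier results of these data known. Named were all 10 genes, every list gene past both thresholds or without overlap, 12 fixed marker genes, and the 5 probes most like Slc2a4 and Tbc1d4, of which 2 are not reported here. Cidea, Ebf2, Ppara and Prdm16 were named after their values were seen. A gene was represented by its brightest detected probe, and symbols and mm9 positions are those of the files. The replicate numbers did not pair the samples. Leaving out an array changed neither the normalization nor the probes tested. The study names 6 mice in each group, and files of 5 nitrate treated mice were analysed here. Each array is from a separate mouse.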

Additional observations from a re-analysis of the deposited data

Results flagged for a closer look

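In 88 groups of 5 or 6 mice, 9 had a lowest or highest mouse whose gap to the next, as a share of the range of the group, was above Dixon's 95% critical value, where chance gives about 1 in 20 groups, or 4.4 here. Of the 9, 7 were control 1. It was high at the second Tbc1d4 probe (0.777), in the brown adipocyte list (0.687) and in the heart muscle list (0.683), and low at the first Tbc1d1 probe (0.661), for Slc2a1 (0.699), and in the smooth muscle (0.654) and fibroblast lists (0.742). Control 6 was high at the first Insr probe (0.642), and nitrate treated mouse 4 in the skeletal muscle list (0.862).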

How the results depend on the processing

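Under 75th percentile scaling, an added 16, normexp background correction, the authors' log2 table, outlier spots kept, slide as a block and each mouse left out in turn, the differences of the 10 genes moved by less than the spread between mice, and those of Tbc1d4, Tbc1d1 and Slc2a4 kept their direction. Within slides, where there is no test, the values moved further: -0.99 for Tbc1d4, 0.57 for Tbc1d1, -1.04 for Slc2a4, 0.48 for Slc2a1, 0.18 for Akt1 and -0.42 for Akt2 in slide 1, 0.75 for Irs2 in slide 2 (0.31 in slide 1 and -0.53 in slide 3), and 0.17 for Tbc1d1 and 0.13 for Akt2 in slide 3. The cause was not tested. The first Tbc1d4 probe left the test where detection on all 11 arrays was required, and then 3 probes passed. With normexp 1218 of the 23629 detected probes passed (5.15%) and without a detection filter 3224 of all 55681 (5.79%), against 2127 (9.00%), while 16 and 13 pathway genes passed.

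With each mouse left out in turn, 12 to 23 pathway genes passed, 2 to 6 of them higher. The r of Tbc1d1 with the adipocyte list then lay between -0.823 and -0.529. It passed the adjusted threshold without nitrate treated mouse 2 (-0.754) and without control 3 (-0.823). It also passed with the slide means removed (-0.783), which was chosen after seeing the data. The permutation P values behind these passes tend to be too small, most so with the slide means removed. With the replicate number as a block, over 5 mice of each group, Slc2a4 differed by -0.71, Tbc1d4 by -0.71 and Tbc1d1 by 0.35, and 21 pathway genes passed. Same-numbered mice did not deviate together, with r between -0.136 and 0.18 over the 5 numbers. The probes, close to background for Tbc1d1 probe 2 and the second Irs1 probe, limit what can be read of those genes.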
